A study of Mus musculus with 6 samples.

Results

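The genes of the FGF, PDGF, VEGF and EGF growth factor systems, with HGF and its receptor MET and KIT with its ligand, were described in preadipocytes sorted for high or low binding of the hormone FNDC4. The members were all transcript clusters annotated to exactly 1 symbol that is Fgf or Fgfr followed by a number, or 1 of a fixed set of PDGF, VEGF, EGF, HGF and KIT family ligands and receptors. This gave 54 genes, each with 1 transcript cluster (a group of probes read together), of the 35556 clusters on the array and the 19938 genes tested. Areg, an EGF receptor ligand, had no cluster under its symbol alone and was not analysed here, and Erbb2 had 1 more cluster that it shares with Sympk and that was not used. The cells were an immortalized stromal vascular line from inguinal white fat of male 129SVE mice. Cells that bound much FcsFNDC4, the soluble part of FNDC4 fused to an antibody Fc domain, became the high binding cells (HBC), and cells that bound little became the low binding cells (LBC), each after repeated sorting up to passage 20. RNA of HBC and LBC was measured on 3 arrays per group, which are technical replicates of 1 sorted population each, so that p-values measure the spread between arrays and not between independent sorts. Both groups were grown in serum-containing medium. For LBC replicates 2 and 3, the source name gives HBC, whereas their titles, descriptions and cell phenotypes read as LBC, by which they were grouped.

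These growth factors act through receptor tyrosine kinases. A ligand pairs receptor molecules at the cell surface, the kinases phosphorylate each other, and adaptor proteins pass the signal to the RAS-MAPK cascade and to PI3 kinase, which in turn induce inhibitors such as the Sprouty proteins and the DUSP phosphatases. In adipose tissue, PDGF receptors mark progenitor cells, FGF1, FGF2 and FGF10 act on preadipocytes, and VEGF from stromal cells and adipocytes acts on the vessels that feed the tissue.

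Among the receptors, Egfr was higher and Met and Fgfr2 were lower in HBC, and among the ligands Hbegf, Btc and Fgf2 were lower. Mean intensities in HBC and LBC were 627 ± 32.8 and 275 ± 17.9 (SD, n = 3 arrays each) for Egfr, 282 ± 23.3 and 785 ± 143 for Met, and 97.4 ± 5.77 and 204 ± 22.4 for Fgfr2. They were 779 ± 54.3 and 1386 ± 217 (SD) for Hbegf, 157 ± 8.56 and 268 ± 36.0 for Btc, and 563 ± 27.3 and 927 ± 106 for Fgf2. The 3 HBC arrays of each of these 6 genes lay entirely on 1 side of the 3 LBC arrays. Differences in what follows are HBC minus LBC on the scale of log2(intensity + 16), where the ± sign gives the standard error; the added 16 makes those of dim genes smaller. A gene was called if its fold on this scale exceeded 1.5 and its p, from limma and adjusted over all 19938 genes by the Benjamini-Hochberg method, was under 0.05. Of the 54 members, 1 was called higher in HBC (1.85%, against 2.54% of all genes tested) and 5 were called lower (9.26%, against 1.13%). At an adjusted p under 0.05 with no fold threshold, 4 were higher (7.41%, against 6.93% of all genes) and 8 were lower (14.8%, against 11.4%). The HBC arrays all lay above the LBC arrays for 4 members (7.41%, against 10.1%) and below them for 16 (29.6%, against 25.1%). The median log2 fold change was -0.13 over the members and -0.07 over all genes.

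**Figure D1:**
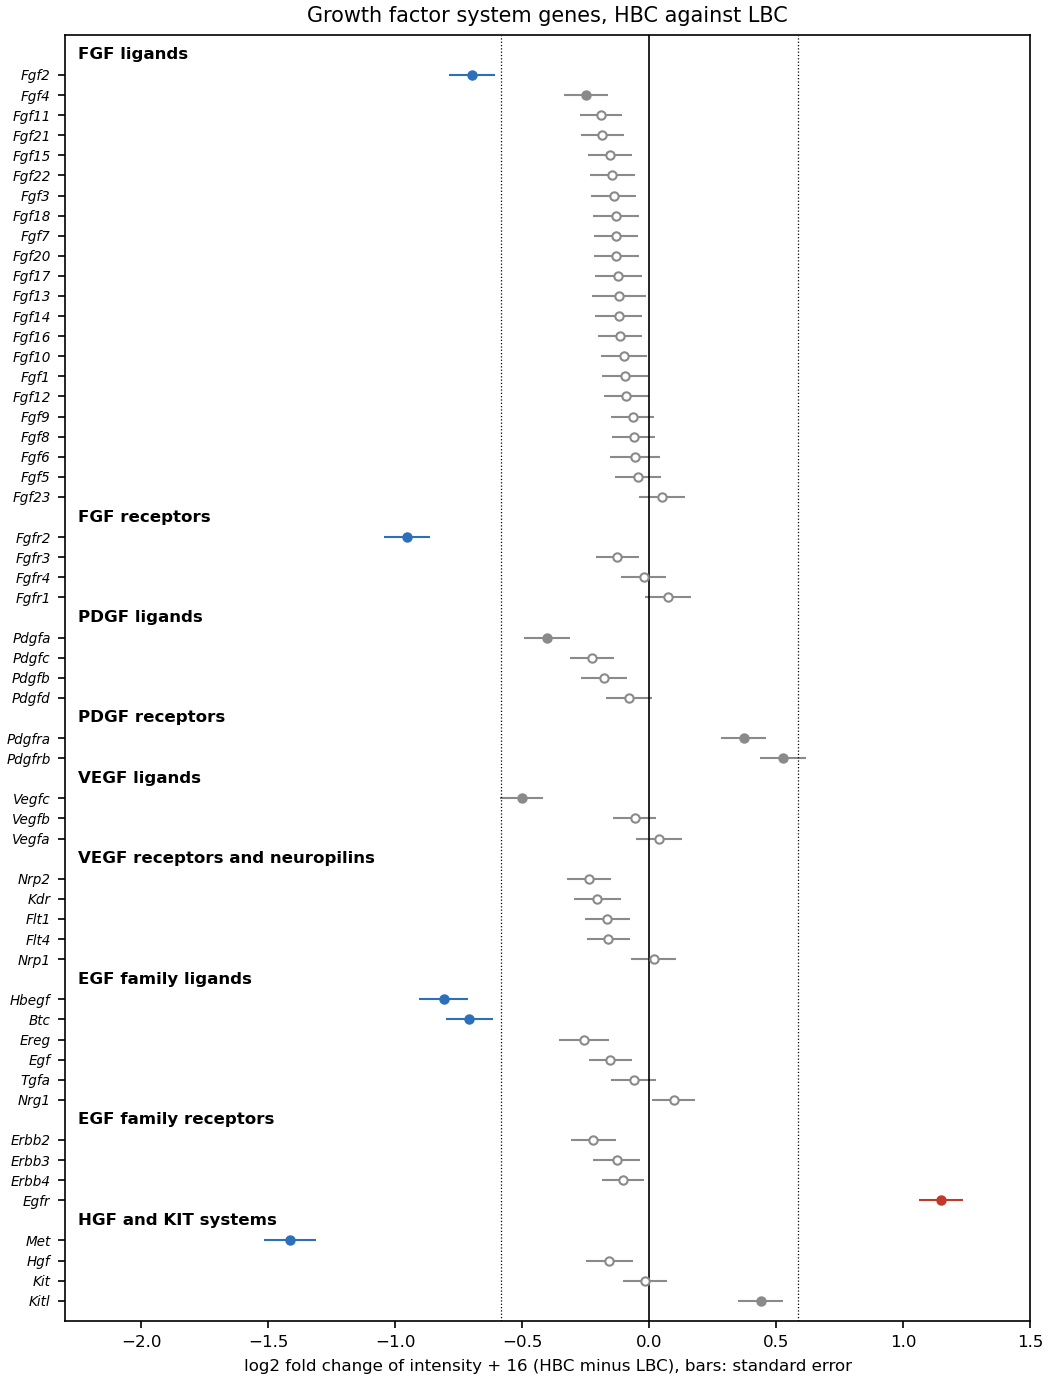
Log2 fold change of intensity + 16 (HBC minus LBC) of the 54 growth factor system genes, grouped by role, with horizontal bars of 1 standard error (limma, n = 3 arrays in each group) and dotted lines at a fold of 1.5. Red and blue mark the 1 gene called higher and the 5 called lower, filled grey points the 6 genes with an adjusted p under 0.05 and a smaller fold, and open points the rest.

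Within the EGF family, Egfr rose and the transcripts of a pair of its ligands fell. Egfr, the receptor for EGF, TGF-alpha, HB-EGF, betacellulin and other ligands, read 617, 664 and 600.4 on the HBC arrays and 257, 274 and 293 on the LBC arrays. The lowest HBC array was above the highest LBC array, and Egfr rose, with a ratio of mean intensities of 2.28 and a difference of 1.15 ± 0.086 on the log2 scale (adjusted p = 7.5e-12). Hbegf, which encodes a membrane-anchored ligand of EGFR and ERBB4, read 758, 840.1 and 738 in HBC and 1237, 1285 and 1635 in LBC. The groups did not overlap and Hbegf fell, at -0.81 ± 0.097 on the log2 scale (adjusted p = 1.4e-07). By the methods' t-test, Hbegf missed the threshold (adjusted p = 0.054, the highest over 20 alternatives and the 1 that lost the call). Btc, the gene of betacellulin, which binds the same receptors, read 147, 163 and 161 in HBC and 235, 262 and 306 in LBC. It fell as well, at -0.71 ± 0.093 on the log2 scale (adjusted p = 6.8e-07).
The other members of the EGF family were not called. Ereg, the gene of epiregulin, read from 317 to 364 in HBC and from 352 to 489.7 in LBC (-0.26 on the log2 scale, adjusted p = 0.070), and the groups overlapped. Egf had a log2 fold change of -0.15, Tgfa one of -0.06 and Nrg1, a ligand of ERBB3 and ERBB4, one of 0.09, with 95% intervals of the difference from -0.33 to 0.02, from -0.24 to 0.12 and from -0.08 to 0.27. Erbb2, the co-receptor with no ligand of its own, read 371, 365 and 340.4 in HBC and 391, 407 and 467 in LBC, a log2 fold change of -0.22 (95% interval from -0.40 to -0.04, adjusted p = 0.083). Erbb3 and Erbb4 read from 51.8 to 88.3 over the 6 arrays, with log2 fold changes of -0.13 and -0.11. In the EGF family, then, 1 of 4 receptors was higher and 2 of 6 ligands were lower, and 7 genes were not called. Of all genes tested, 2.54% were called higher and 1.13% lower.

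Among the HGF and KIT systems, the receptor of the first was called lower, and the ligand of the second passed the adjusted p without the fold. Across all genes tested, 1.13% were called lower, and 6.93% were higher at the adjusted p with no fold threshold. Met, the receptor of hepatocyte growth factor, read 292, 298 and 255 in HBC and 677, 731 and 946 in LBC. The groups were far apart and the LBC arrays spread more widely than the HBC arrays. Met fell, at -1.42 ± 0.101 on the log2 scale (adjusted p = 2.3e-12), a 2.78-fold higher mean intensity in LBC, which was the largest change of the 54 members in either direction. Its ligand Hgf read 759, 724 and 726 in HBC and 752, 777 and 955 in LBC, so that the groups overlapped (-0.16 on the log2 scale, 95% interval from -0.35 to 0.03). Kitl, the gene of stem cell factor, read 544, 540.2 and 504 in HBC and 362, 368 and 433 in LBC. All HBC arrays were above the LBC arrays (0.44 ± 0.089 on the log2 scale, adjusted p = 0.00048), but the fold stayed under 1.5 and the gene was not called. By the methods' t-test, the adjusted p of Kitl was 0.072, the highest over 20 alternatives. Kit, the receptor for this ligand, read from 83.4 to 95.3 over the 6 arrays with a log2 fold change of -0.02.

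In the FGF family, 1 of 22 ligands and 1 of 4 receptors were lower in HBC, and the other 24 genes were not called. The share called lower over all genes tested was 1.13%. Fgf2, the gene of basic FGF, read 555, 594 and 541 in HBC and 845, 889 and 1047 in LBC. The arrays of the groups did not overlap, and Fgf2 fell, at -0.70 ± 0.091 on the log2 scale (adjusted p = 6.0e-07). Fgfr2, a receptor whose splice forms bind FGF7 and FGF10 or FGF2, read 102, 91.1 and 98.7 in HBC and 196, 187 and 229.6 in LBC. It fell, at -0.96 ± 0.090 on the log2 scale (adjusted p = 1.0e-09). Its mean in HBC, 97.4, is under the intensity of 100 that the study's filter asks for in both groups, so the gene drops out under that filter.
The other FGF receptors were not called. Fgfr1 read 1527, 1573 and 1424 in HBC and 1316, 1377 and 1614 in LBC, with overlapping groups and a log2 fold change of 0.07 (95% interval from -0.11 to 0.26). Fgfr3 and Fgfr4 had log2 fold changes of -0.13 and -0.02. Fgf7, the gene of keratinocyte growth factor, read from 2623 to 2898 in HBC and from 2794 to 3285 in LBC, a log2 fold change of -0.13 (95% interval from -0.31 to 0.05). Fgf4 read 145, 148 and 151 in HBC and 183, 193 and 161 in LBC, and its log2 fold change of -0.25 passed the adjusted p (0.043) and not the fold. Without LBC replicate 2, the adjusted p of Fgf4 from limma was 0.28, the highest over 20 alternatives. The other 20 FGF ligands had log2 fold changes from -0.19 to 0.05, with adjusted p of 0.12 or more. Among them were Fgf1 and Fgf10, with log2 fold changes of -0.10 each (95% intervals from -0.28 to 0.09 and from -0.29 to 0.08), and the endocrine ligand Fgf21 (log2 fold change of -0.19).

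The start regions of Egfr, Met and Fgf2 are shown here because they belong to the 1 gene called higher, the member with the largest change and the 1 FGF ligand called lower. Each is the 250 bases before the annotated start site in RefSeq (GRCm38.p6, + strand, 5' to 3'). Windows were held for 5 of the 6 called members. The regions lie at chr11:16751953-16752202 for Egfr, chr6:17463707-17463956 for Met and chr3:37348403-37348652 for Fgf2. Capitals mark matches on either strand to the GC box GGGCGG, the AP-1 site TGANTCA and the ETS site CCGGAAG, which do not overlap each other here.
Egfr: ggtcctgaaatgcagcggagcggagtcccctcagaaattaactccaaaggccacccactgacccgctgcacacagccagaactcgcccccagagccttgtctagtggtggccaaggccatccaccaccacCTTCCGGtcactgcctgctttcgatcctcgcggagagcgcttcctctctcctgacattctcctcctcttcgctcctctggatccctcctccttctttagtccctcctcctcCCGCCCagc
Met: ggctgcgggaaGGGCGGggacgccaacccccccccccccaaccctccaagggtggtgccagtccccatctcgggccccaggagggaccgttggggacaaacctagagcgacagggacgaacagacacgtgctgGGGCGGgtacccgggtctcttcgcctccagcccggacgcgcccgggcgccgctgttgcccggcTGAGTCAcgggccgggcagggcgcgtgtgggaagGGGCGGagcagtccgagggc
Fgf2: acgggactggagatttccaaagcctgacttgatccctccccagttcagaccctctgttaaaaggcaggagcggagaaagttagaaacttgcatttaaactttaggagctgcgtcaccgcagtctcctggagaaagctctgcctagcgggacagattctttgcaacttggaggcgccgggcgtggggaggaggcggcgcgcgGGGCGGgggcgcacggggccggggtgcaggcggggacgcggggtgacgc
The GC content was 60.8% for Egfr, 74.0% for Met and 62.4% for Fgf2, against a median of 52.4% over all 32851 RefSeq windows of this length. Egfr held 1 GC box and 1 ETS site, Met held 3 GC boxes and 1 AP-1 site, and Fgf2 held 1 GC box. A GC box was present in 32.7% of all windows, an AP-1 site in 6.75% and an ETS site in 6.91%. The letters describe the windows, and no binding of a factor was measured.

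For PDGF, both receptors read higher and the ligand Pdgfa read lower in HBC past the adjusted p, but no gene passed the fold threshold. At that adjusted p with no fold threshold, 6.93% of all genes tested were higher and 11.4% lower. With the fold threshold, these shares were 2.54% and 1.13%. Pdgfrb, the receptor for PDGF-BB and PDGF-DD that is also a marker of mural cells, read 2704, 2818 and 2574 in HBC and 1709, 1831 and 2083 in LBC. All HBC arrays lay above the LBC arrays (0.53 ± 0.089 on the log2 scale, adjusted p = 4.8e-05), and the gene was called when LBC replicate 3 was left out (log2 fold change of 0.60). Pdgfra, the receptor that marks adipose progenitors, read 4148, 4331 and 3808 in HBC and 2923, 3105 and 3472 in LBC (0.37 ± 0.089 on the log2 scale, adjusted p = 0.0029). Here, too, the groups did not overlap. Pdgfa, a ligand of PDGFRA, read 1209, 1225 and 1222 in HBC and 1480.1, 1554 and 1835 in LBC (-0.40 ± 0.090 on the log2 scale, adjusted p = 0.0014). By the methods' t-test, the adjusted p of these 3 genes was 0.056, 0.11 and 0.097, the highest over 20 alternatives for each.
Pdgfc, another ligand of PDGFRA, read from 1583 to 1696 in HBC and from 1794 to 2116 in LBC, and its log2 fold change of -0.23 missed the threshold (adjusted p = 0.073). Pdgfb and Pdgfd had log2 fold changes of -0.18 and -0.08, and Pdgfd read from 23.4 to 32.6 over the 6 arrays.

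In the VEGF system no gene was called, and 1 ligand passed the adjusted p. Over all genes tested, 2.54% were called higher and 1.13% lower. With no fold threshold, 6.93% were higher and 11.4% lower at the adjusted p. Vegfc, a ligand of VEGFR3 that is known for its role in lymphatic vessels, read 71.8, 70.1 and 83.0 in HBC and 113, 109.5 and 116 in LBC. The groups did not overlap, and the difference was -0.50 ± 0.086 on the log2 scale (adjusted p = 5.5e-05). This is under the fold threshold with the added 16, whereas with an added 1 the log2 fold change was -0.59 and the gene was called. Vegfa, the main ligand for vessel growth, read 1553, 1641 and 1528 in HBC and 1382, 1498 and 1741 in LBC, which overlapped (0.04 on the log2 scale, 95% interval from -0.15 to 0.22). Vegfb had a log2 fold change of -0.06 (95% interval from -0.23 to 0.12).
The endothelial receptors Flt1, Kdr and Flt4 read from 34.1 to 93.3 over the 6 arrays, with log2 fold changes of -0.17, -0.21 and -0.16 and no call. Nrp1, a co-receptor for VEGF and semaphorins, read from 2031 to 2138 in HBC and from 1887 to 2330.1 in LBC (0.02 on the log2 scale, 95% interval from -0.17 to 0.20). Nrp2 had a log2 fold change of -0.24 (adjusted p = 0.052), with the HBC arrays at 339, 322 and 323 and the LBC arrays at 364, 382 and 427.

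**Figure D2:**
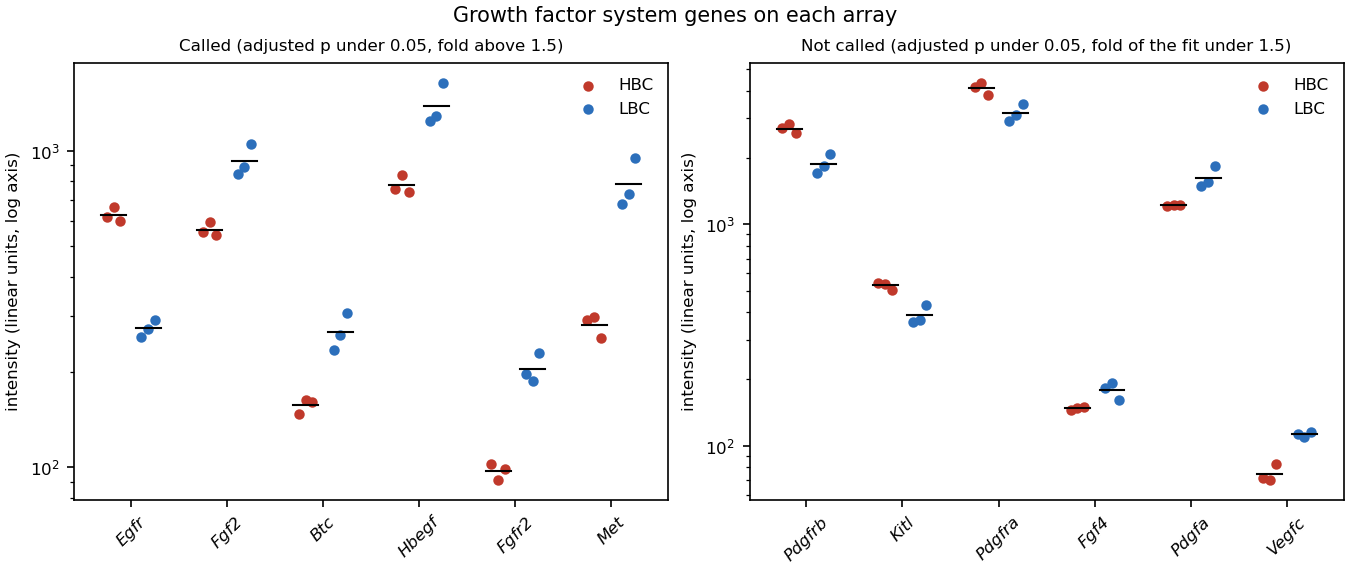
Deposited intensity (linear values, log axis) by array for the 6 called members (left) and for the 6 members that passed the adjusted p and not the fold (right); HBC arrays are red, LBC arrays blue, and each line is the mean of 3 arrays. The groups do not overlap for any of the 12 genes, but these were chosen by adjusted p on the same arrays. Among all genes tested, the HBC arrays lie wholly above for 10.1% and wholly below for 25.1%. LBC replicate 3, the right-hand blue point, is the highest LBC array for all of the 12 except Fgf4.

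LBC replicate 3 read high among bright genes, but not over all clusters. The 75th percentile of intensity over the genes tested was 645 on that array and from 543 to 590.1 on the others, whereas its median over all clusters, 131, was the lowest of the LBC arrays (134 and 134.6 on the other two). Without LBC replicate 3, the log2 fold change was -1.28 for Met, -0.69 for Hbegf and -0.61 for both Btc and Fgf2, and all 6 members were called as with it.

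Other genes of these pathways were taken from 5 lists, 144 genes in all, of which 135 had a cluster of their own. Of these 135, 9 were called higher (6.67%, against 2.54% of all genes tested) and 7 lower (5.19%, against 1.13%), and the median log2 fold change was -0.05. Among 23 feedback inhibitors of receptor tyrosine kinases, 4 were higher (17.4%, against the same 2.54%), 1 was lower (4.35%, against 1.13%) and 18 were not called (median 0.04). Socs2, which restrains growth hormone and other cytokine signals, read 597, 701 and 581 in HBC and 181, 179.6 and 199 in LBC, and it rose, at 1.66 ± 0.090 on the log2 scale (adjusted p = 2.4e-15). The Sprouty genes Spry1, Spry2 and Spry4, inhibitors of the RAS-MAPK cascade, rose with log2 fold changes of 0.91, 0.72 and 0.62. Spry1 read 301, 323 and 281 in HBC and 149, 154 and 154 in LBC. Spry3 was not called (-0.10), and Spry4 was not called when LBC replicate 1 was left out (0.57). Dusp6, a phosphatase of ERK, fell with a log2 fold change of -0.66 and read 480.4, 508 and 454 in HBC and 726, 721 and 875 in LBC. The call of Dusp6 was lost without LBC replicate 3 (-0.58) and with array weights (-0.57).
Among 24 immediate early and ETS family genes, none was higher, 2 were lower and 22 were not called (median -0.19). The share lower was 8.33%, against 1.13% of all genes tested, and none higher compares with 2.54%. Etv4, an ETS factor induced by FGF and RAS-MAPK signals, read 157, 178 and 165 in HBC and 309, 302 and 345 in LBC. It fell, at -0.87 ± 0.087 on the log2 scale (adjusted p = 3.7e-09). Ier3 fell with a log2 fold change of -0.73, and it missed the threshold by the methods' t-test (adjusted p = 0.073, the highest over 20 alternatives) and the fold with array weights (-0.55). The related Etv5 (-0.05) and the early response gene Egr1 (-0.02) were not called. Egr2, Sdc3 and Flt3l are named because their call depended on the setting, which was seen in the data. Egr2, an early response factor, lay just under the fold threshold at 0.57 and was called under all 3 scalings between arrays (0.61 to 0.66) and in 4 of the other 17 alternatives.

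Co-receptors, binding proteins and enzymes that process ligands or heparan sulfate gave 3 higher and 2 lower genes of 36 measured (median 0.00). These shares were 8.33% and 5.56%, against 2.54% and 1.13% of all genes tested. Sulf2, which trims sulfate from heparan sulfate chains, rose with a log2 fold change of 0.89, and the glypicans Gpc6 and Gpc4, proteoglycans of the cell surface, rose with 0.88 and 0.64. The LBC arrays of Sulf2 read 77.4, 72.1 and 61.8, under the 90th percentile of olfactory receptor genes (84.5), a reference for dim signal, and the gene drops out under the filter on 100 in both groups. Gpc6 read 342, 352 and 311 in HBC and 174, 175 and 174 in LBC. The call of Gpc4 was lost without HBC replicate 2 (0.58). Flrt3, a membrane protein that binds FGF receptors, fell with a log2 fold change of -0.84, and Hs6st2, a heparan sulfate sulfotransferase, with -0.69. The HBC arrays of Flrt3 read 78.8, 69.3 and 69.7, also under 84.5, and this gene drops out under the same filter. Hs6st2 was not called without HBC replicate 3 (-0.56), with an added 50 (-0.57) or by the methods' t-test (adjusted p = 0.090, the highest over 20 alternatives). Sdc3, a syndecan, lay just under the fold threshold at 0.58 and was likewise called under the 3 scalings (0.61 to 0.66), with array weights, with an added 1, and without HBC replicate 1 (0.59), HBC replicate 3 (0.64) or LBC replicate 3 (0.63). The sheddase gene Adam17, whose product releases EGFR ligands, had a log2 fold change of -0.03.
Of 27 adaptors and cascade genes measured, Pik3r1, the regulatory subunit of PI3 kinase, rose (0.74), Pik3cb, a catalytic subunit, fell (-0.63) and Grb14, an adaptor that inhibits receptor kinases, fell (-0.65), while 24 were not called (median -0.05). Pik3cb was the least stable of these, with the call lost after median centring (-0.58), after cyclic loess normalization (-0.56), by the methods' t-test (adjusted p = 0.074, the highest over 20 alternatives), with array weights (-0.52) and without LBC replicate 3 (-0.51). The call of Grb14 was lost after cyclic loess normalization (-0.57). The mitogen cascade genes Map2k1 (0.28) and Map2k2 (-0.13) were not called. Of the 27 genes, 3.7% were called higher and 7.41% lower, against 2.54% and 1.13% of all genes tested. Among 25 related ligands and receptors, Angpt1, a ligand of the endothelial receptor TEK, was called higher, at 566, 589.5 and 555 in HBC and 263, 299 and 366 in LBC (0.86 ± 0.096 on the log2 scale, adjusted p = 4.0e-08). The other 24, including Fgfrl1 (0.04) and Csf1 (0.05), were not called. In this list 4% were called higher and none lower, against 2.54% and 1.13% of all genes tested. Flt3l, a cytokine ligand, was at 0.56 and was called under the 3 scalings, with an added 1 and without HBC replicate 3 (0.62).

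**Figure D3:**
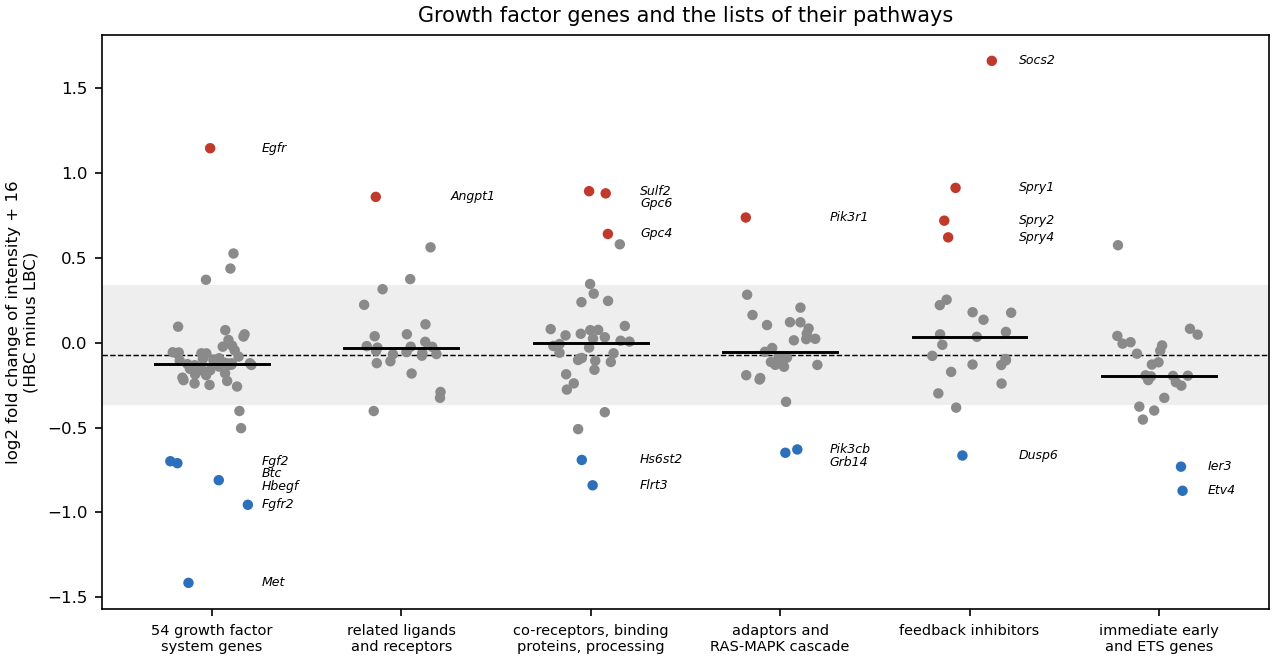
Log2 fold change of intensity + 16 (HBC minus LBC) of each measured gene in the growth factor systems and in 5 lists of their pathways, with genes called higher in red, called lower in blue and not called in grey, and a black line at each median. The grey band spans the 5th to 95th percentile of all 19938 genes (-0.36 to 0.33) and the dashed line is their median (-0.07); points are spread sideways for legibility.

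**Figure D4:**
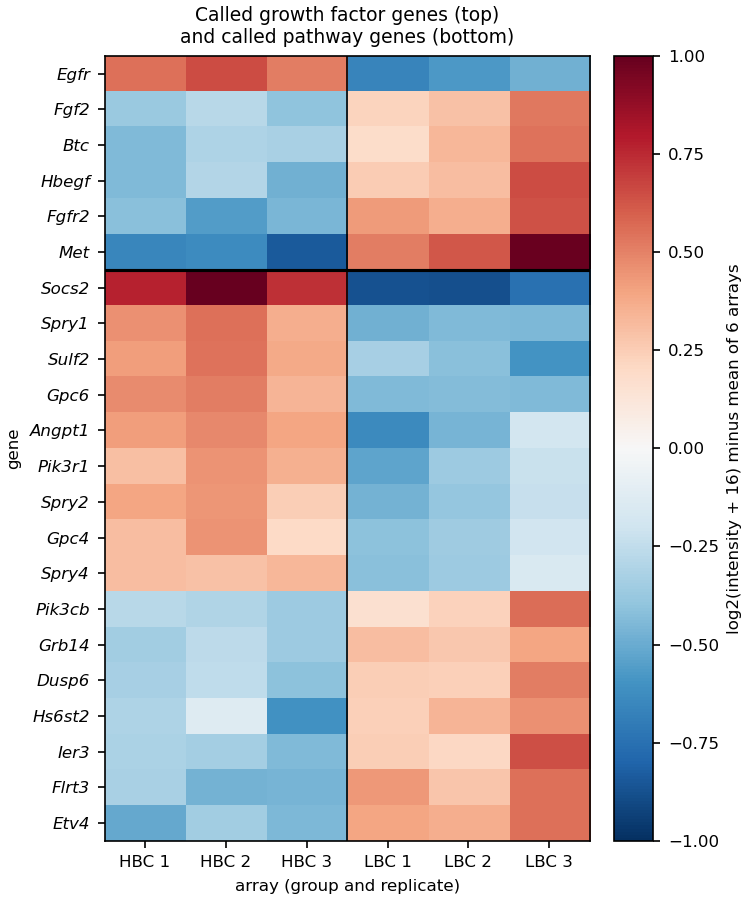
Log2(intensity + 16) on each of the 6 arrays minus the mean over the arrays, for the 6 called growth factor genes (above the line) and the 16 called pathway genes (below it), with red above and blue below that mean. The 3 HBC arrays are on 1 side of their mean and the 3 LBC arrays on the other for every gene shown. The genes were chosen by their calls on these same arrays, so this separation is not a result of its own. LBC replicate 3 has the darkest red of the LBC arrays for Met and Hbegf.

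Cell type markers were read in the same arrays, since VEGF receptors, PDGFRB, KIT and ERBB3 mark other cells of adipose tissue. Of 14 endothelial markers, none was called, and their summed intensity ranged from 1231 to 1389 in HBC and from 1313 to 1484 in LBC, with Pecam1 at 60.6 and 64.0 on average. The dim marker Sox17 was lower in HBC without overlap (49.0 and 66.4 on average, log2 fold change of -0.35, adjusted p = 0.0057). Of 9 mast cell markers, none was called, their sum was 1006 to 1070.04 in HBC and 1051 to 1104 in LBC, and Cpa3 read 75.8 and 73.8 on average. Of 15 markers of macrophages and leukocytes, none was called, and their sum was lower in HBC (1202 to 1271) than in LBC (1343 to 1443), with Ptprc at 59.8 and 69.9. Both Ptprc means lie under 84.5, the 90th percentile of olfactory receptor genes. The largest change was that of Cd14 (107 in HBC and 155 in LBC on average, log2 fold change of -0.48), and the sum without it was not made. The median log2 fold change of the 15 was -0.11, against -0.07 over all genes. Of 12 mural markers, Cnn1 was lower in HBC (log2 fold change of -0.80) and 11 were not called, with Rgs5 at 67.9 in HBC and 102 in LBC on average and summed intensities from 5922 to 6301 in HBC and from 6309 to 7200.3 in LBC. Without Cnn1 and Tagln (651 in HBC and 967 in LBC on average), the other 10 markers summed to 5019 to 5324 in HBC and 4911 to 5551 in LBC. These ranges overlap, but most of the sum is Acta2 (4261 in HBC and 4182 in LBC on average), so it says little about the dimmer markers. Rgs5, among the 10, was lower in HBC without overlap (log2 fold change of -0.49, adjusted p = 6.3e-05). Of 6 Schwann cell markers, Pmp22 was higher (0.73), the sum was 4248 to 4708 in HBC and 2989 to 3299 in LBC, and Sox10 read 182 and 203 on average. Without Pmp22 the other 5 summed to 917 to 959 and to 903 to 1012, which overlap. Of 9 epithelial markers, none was called, with sums from 1232 to 1353 and from 1243 to 1263. Krt19, the brightest, was higher in HBC without overlap (461 and 353 on average, log2 fold change of 0.38, adjusted p = 0.0022). The median log2 fold change of the 9 was -0.11. Of 14 markers of preadipocytes and mesenchymal progenitors, Pdgfra among them, the early adipocyte factor Ebf2 (0.87) and Col3a1 (0.80) were higher and Dcn was lower (-0.78), and the summed intensity, from 23221 to 26116 in HBC and from 22064 to 25537 in LBC, overlapped. Of 8 markers of mature adipocytes, Lpl was higher (1.84), the sum was 4838 to 4956 in HBC and 2691 to 3135 in LBC, and Adipoq read 43.0 and 40.7 on average. Without Lpl the other 7 summed to 2862 to 3030.3 and to 2189 to 2556. Among these, Retn averaged 187 in HBC and 120 in LBC (log2 fold change of 0.58, adjusted p = 7.9e-06). Fabp4 averaged 2363 and 1774 (0.42, adjusted p = 0.0013). For both, the arrays of the groups did not overlap and the fold stayed under 1.5. Slc2a4, Lep, Cidec and Plin1 went the other way, with log2 fold changes of -0.14, -0.13, -0.13 and -0.005. Adipoq had one of 0.06, and all of these had an adjusted p above 0.05. Most of the sum without Lpl is Fabp4, so it says little about the dimmer markers, and the sum without Fabp4 was not made. The median log2 fold change of the 8 was 0.03. The part of differences in cell state or cell mixture in the growth factor genes was not tested, and in bulk RNA fewer cells of a type and less RNA per cell cannot be told apart.

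Dim signal limits the members unequally. Olfactory receptor genes, taken after seeing the data as a guide to the signal of genes not in use, read between 13.9 (10th percentile) and 84.5 (90th percentile) for 1015 genes, and 9 of the 54 members had both group means within or below that range. The pathway genes Flrt3 in HBC and Sulf2 in LBC were within it. In HBC, Vegfc, from 70.1 to 83.0, was within it, and Fgfr2, from 91.1 to 102, was just above it, which limits what their fold changes can show. Clusters differ in how brightly they read, so an intensity above that range does not by itself show expression, and intensities were not compared between genes.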

How the data were processed

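RNA of 3 HBC and 3 LBC technical replicates was hybridised to Affymetrix mouse gene arrays. The authors deposited linear intensities from Affymetrix Expression Console, per the submitters' processing notes; for its version, its summary method and any scaling between arrays, the sources used here state nothing. The methods name a later version of the array than the one whose annotation matched the cluster identifiers. Of the 35556 transcript clusters, 21789 carried 1 symbol in the platform annotation, 1621 several and 12146 none. For 999 genes with several clusters, the one with the highest mean over 6 arrays was used; each of the 54 members has 1. All members matched RefSeq (GRCm38.p6) with the same symbol.

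A linear model on log2(intensity + 16) was fitted over all 19938 genes with limma 3.58.1 (lmFit, eBayes; R 4.3.3), with group as the 1 factor and no replicate block. Calls needed a fold over 1.5 and, after Benjamini-Hochberg adjustment, p under 0.05. The prior degrees of freedom were 24.9 against 4 residual ones, so very small adjusted p-values lean on the variance shared between genes. The script was tested on simulated data before use. Intervals are 95% intervals of the log2 fold change from the same fit.

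The members, the pathway and marker lists and the tests were chosen with earlier results of these data known. Members called are named with every array's value. Of the members not called, most FGF ligands are given by range, whatever their intensity, and the rest are named. From each pathway list, called genes and a few others are named. Start-site sequences come from RefSeq. Alternatives were 3 scalings between arrays, 2 intensity filters, the methods' t-test (p adjusted in the same way), trended and robust variance priors, array weights, an added 1 or 50, 2 other choices of cluster, a replicate block, 2 other fold thresholds, and leaving out each array. The number of arrays limits the precision.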

Additional observations from a re-analysis of the deposited data

How the results depend on the processing

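The count of 6 called members kept within 1.5 times under all alternatives except the fold thresholds, with 12 members and no fold threshold and 2 members, Egfr and Met, above 2-fold. The same thresholds gave 3655 and 280 of all genes in place of 732, and 37 and 1 of the pathway genes in place of 16. Leaving out an array gave 6 to 7 members, 710 to 784 of all genes and 15 to 18 of the pathway genes. Egfr, Met, Fgf2 and Btc kept their direction and their call under all 20 alternatives that give a value for single genes. Fgfr2 kept both under the 19 that tested it, being left out by the filter on 100 in both groups. Hbegf missed the threshold by the methods' t-test alone (log2 fold change of -0.81), Vegfc passed it with an added 1 (-0.59) and Pdgfrb without LBC replicate 3 (0.60).

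Directions of uncalled members near 0 were not stable. After cyclic loess normalization, the log2 fold changes of Fgf8, Fgf9 and Tgfa turned to 0.021, 0.017 and 0.020, and with array weights, whose estimation stopped before convergence, those of Fgf18, Fgf23 and Vegfb turned to 0.0036, -0.0024 and 0.010. Leaving out an array, Nrp1 ran from -0.048 to 0.10, Vegfa from -0.038 to 0.13 and Fgf23 from -0.019 to 0.12. Scaling between arrays moved the median log2 fold change of all genes from -0.07 to between -0.03 and 0. The cause of these changes was not tested. Replicate numbers did not pair the arrays, since the deviations from the group means had correlations of -0.096, -0.24 and -0.50 between arrays of the same number. Between HBC and LBC arrays of different numbers the correlations ran from -0.47 to 0.49, which a block by number does not take up. The replicate block left the count at 6 members, 732 of all genes and 16 of the pathway genes, with infinite prior degrees of freedom. Dim signal limits Vegfc, Fgfr2 and Flrt3 in HBC and Sulf2 in LBC.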
